A study of Mus musculus with 294 samples.

Results

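A set of 10 genes of the extracellular matrix of the outflow tract cushions were followed in single neural crest cells of the embryonic mouse heart: Vcan, Hapln1, Has2, Cd44, Tnc, Fn1, Postn, Tgfbi, Pcolce and Loxl2. They were taken by name from a raw count table of 15124 genes, and all 10 had a row. Vcan to Tgfbi form the matrix set proper. Pcolce and Loxl2 were added because earlier results of these same cells tied them to Postn, so their relation to Postn is given below as a description that supports nothing. All 10 were among the 8853 genes that reached 10 CPM in at least 10% of the cells, CPM being the reads of a gene after the total of every cell is scaled to 1000000.

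The endocardial cushions are swollen stretches of matrix that are later shaped into valves and septa, and neural crest cells enter those of the outflow tract. Hyaluronan, a long sugar chain spun out by hyaluronan synthases, holds water in this matrix, and the proteoglycan versican binds it with the help of a link protein. Periostin and its relative TGFBI are secreted fasciclin proteins of maturing valve tissue, and procollagen processing and lysyl oxidases turn secreted collagen into cross-linked fibres.

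The cells came from mice that carried Wnt1-Cre and the Cre-dependent R26-EYFP reporter and shared this genotype, with no treatment and no cells of another genotype. They were taken from the heart around the aorticopulmonary septum at embryonic days 11.5 and 12.5 or at the later days 14.5 and 17.5, sorted for EYFP, and captured one by one on Fluidigm C1 chips, on which full-length cDNA was made. All cells form 1 group, because no label gives the stage, animal or chip of a cell, so no stage is compared and no value has a replicate. Wnt1-Cre marks a cell by its ancestry, and a marked cell may be of any type that the neural crest gives rise to.

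Cells are set apart here by the digit that opens the number in a cell's name, called its name series. The 7 name series held 58, 48, 38, 38, 34, 34 and 44 cells, and the labels do not give the meaning of the digit, so series differences may be of stage, chip, day or anything else that the digit follows. Reads per cell ran from 34046 to 3033857 with a median of 1204543. No molecular identifiers are named, so counts are of reads, and the 95% intervals below (exact Clopper-Pearson for shares, order statistics for medians) cover counting error only. Series 1 stood apart: its cells had a median of 7718 genes with a read, against 3123 to 4676.5 in the other series, and every one of its 58 cells had at least 1 read of Vcan, Has2, Tnc, Fn1, Postn, Tgfbi, Pcolce and Loxl2. In series 2 to 7, Has2 had no read in 51.3% of cells and Tnc in 40.3%. Shares of cells in series 1 are therefore read as upper limits, and results that move without it are given both ways. Mesenchyme and fibroblast markers were widespread: all 8 were found, in 52.4% (Pdgfrb) to 99.7% (Col3a1) of the cells, and their summed level had a median of 8150 CPM. All 8 smooth muscle markers were found too, in 10.9% (Des) to 78.9% (Tpm2) of the cells. The summed level of the 8 smooth muscle markers had a median of 1464 CPM and that of 4 epicardial markers 173.4 CPM, with Tbx18 in 51.7% and Tcf21 in 44.6% of the cells. The same medians were 2.58 CPM for 4 endothelial and 1.15 CPM for 6 cardiomyocyte markers.

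The sequence just upstream of a gene's start is printed for Postn, Tnc and Vcan, 1 gene from each of the 3 groups of related genes described below, whose windows hold no annotated exon. Each is the 250 bases before a RefSeq start on GRCm38.p6 (Postn and Tnc have another start each), read 5′ to 3′ on the gene's own strand, from chr3:54360857-54361106 (plus strand) for Postn, chr4:64047016-64047265 (minus strand) for Tnc and chr13:89742513-89742762 (minus strand) for Vcan. Capitals mark matches on either strand to a TATA motif (TATAAA) or a GC box (GGGCGG).
Postn: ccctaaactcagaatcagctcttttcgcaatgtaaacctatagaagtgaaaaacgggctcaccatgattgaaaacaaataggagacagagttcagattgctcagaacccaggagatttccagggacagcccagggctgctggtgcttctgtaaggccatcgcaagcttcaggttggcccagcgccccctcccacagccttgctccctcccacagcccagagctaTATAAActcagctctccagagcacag
Tnc: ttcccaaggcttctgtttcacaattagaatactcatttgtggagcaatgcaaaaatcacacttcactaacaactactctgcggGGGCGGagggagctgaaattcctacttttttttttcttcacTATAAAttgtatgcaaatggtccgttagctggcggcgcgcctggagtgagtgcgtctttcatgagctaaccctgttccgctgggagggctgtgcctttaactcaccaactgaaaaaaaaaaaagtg
Vcan: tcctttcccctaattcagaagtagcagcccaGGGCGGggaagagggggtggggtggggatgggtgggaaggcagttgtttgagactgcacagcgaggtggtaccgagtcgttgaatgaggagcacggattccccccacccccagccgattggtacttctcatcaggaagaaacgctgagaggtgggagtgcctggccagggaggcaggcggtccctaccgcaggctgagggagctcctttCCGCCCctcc
Postn holds TATAAA at positions -26 to -21 before its start, and this motif is in 12.4% of the 32851 RefSeq windows of this length. Tnc holds TATAAA farther out, at -126 to -121, and a GC box at -167 to -162. Vcan holds no TATAAA and a pair of GC boxes, at -219 to -214 and, on the other strand, at -10 to -5, a motif of 32.7% of all windows. An E-box (CANNTG), in 66.2% of windows, has 3 matches in Tnc, 1 in Vcan and none in Postn, and none of them overlaps a TATA motif or GC box. The AP-1 motif TGANTCA, in 6.75% of windows, and the CArG motif, in 1.47%, have no match in the 3 windows shown. Of the 10 genes, 7 had a window in the RefSeq table; those of Pcolce, Tgfbi and Hapln1 overlap annotated exons, and Fn1, Has2 and Loxl2 had no entry. A match is a string of letters and says nothing about binding.

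Postn, Vcan, Fn1 and Loxl2 were near-ubiquitous, while Hapln1, Has2 and Cd44 reached 10 CPM in a minority of cells. A share of at least 50% of cells at 10 CPM or more was reached by 7 of the 10 genes, namely Postn (97.96%), Vcan (95.6%), Fn1 (94.2%), Loxl2 (88.1%), Tgfbi (77.2%), Pcolce (59.5%) and Tnc (56.1%). Among all 15124 genes, 14.4% reached it. Hapln1 was found at this level in 40.1% of cells, Has2 in 38.8% and Cd44 in 34.4%, and at least 1 read of them was in 57.1%, 58.8% and 47.3% of cells. A cell held a median of 7 of the 10 genes, from 2 to 10, and this median was also 7 among cells thinned to 300000 reads each.

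**Figure D1:**
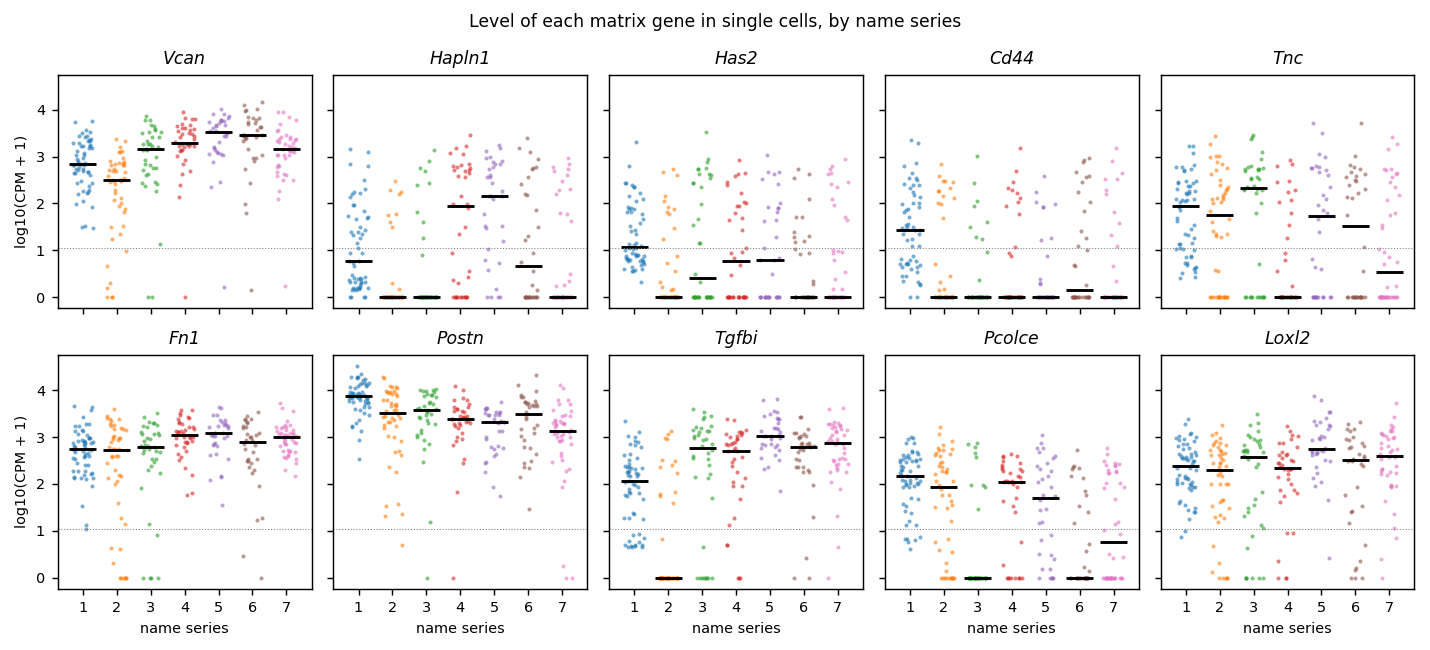
Level of each of the 10 genes in each cell (points), as log10(CPM + 1), by name series 1 to 7 on the horizontal axis; black bars are series medians and the dotted line marks 10 CPM. Postn lies above the line in nearly every cell of every series, and Fn1 in 81.25% (series 2) to 100% of the cells of a series. Tgfbi lies at 0 in most cells of series 2, and the points of series 1 rarely reach 0 in any panel.

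Among the genes of the hyaluronan and versican network, Vcan was expressed almost everywhere and differed strongly in amount. Vcan (ENSMUSG00000021614.16, chromosome 13, 89655312 to 89742509, minus strand, GRCm38) encodes versican, the large chondroitin sulfate proteoglycan of the cushions. Over all cells its level ran from 0 to 14213.2 CPM with a median of 1350.4 CPM (95% interval 1066 to 1604). The series medians were 700.3, 312, 1419, 1941, 3340.2, 2839 and 1445 CPM for series 1 to 7. Series 5 and 6 were thus the highest and series 2 the lowest, where 85.4% of cells held the gene against 94.7% to 100% in the others. The 95% intervals over cells were 132.04 to 515.59 CPM in series 2 and 1512 to 5156 CPM in series 5. Whether these series differ was not tested, as a series has no replicate.

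Hapln1 (ENSMUSG00000021613.9, chromosome 13, 89539796 to 89611652, plus strand) encodes the link protein that fastens versican to hyaluronan, and it is the neighbour of Vcan, 43.7 kb away with no protein-coding gene between them. It was patchy where Vcan was not. The share of cells at 10 CPM reached 73.5% in series 5 (95% interval 55.6% to 87.1%) and 57.9% in series 4 (40.8% to 73.7%). It was as low as 16.7% in series 2 (7.48% to 30.2%) and 23.7% in series 3 (11.4% to 40.2%). Its median was 144.7 CPM in series 5, 87.2 CPM in series 4 and at most 5.01 CPM in the others. Its highest cell had 2838 CPM, and the tenth of the cells with most Hapln1 held 64.8% of its summed level.

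Has2 (ENSMUSG00000022367.7, chromosome 15, 56665627 to 56694539, minus strand), the main hyaluronan synthase of the cushions, was low in most cells and high in few. Its median was 4.62 CPM over all cells and 0 CPM without series 1, and its highest cell, in series 3, had 3298 CPM. The tenth of the cells with most Has2 held 69.6% of its summed level. By series its share was lowest in series 2, at 22.9% (95% interval 12.03% to 37.3%), and highest in series 1, at 53.4% (39.9% to 66.7%), followed by series 3 at 47.4% (30.98% to 64.2%). Exons of Has2 overlap those of the antisense gene Has2os, and reads there cannot be told apart, since the strand setting of the counting is not given in the sources used here.

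Cd44 (ENSMUSG00000005087.17, chromosome 2, 102811141 to 102901665, minus strand), a cell surface receptor for hyaluronan, was the rarest of the 10. Its median was 0 CPM, and the tenth of the cells with most Cd44 held 73.9% of its summed level, the highest such share of the 10 genes. Series 1 carried much of its detection: the share of cells at 10 CPM was 63.8% there (95% interval 50.1% to 76.01%) and 21.1% to 38.2% in series 2 to 7. Without series 1 the share over all cells was 27.1%, outside the interval of the 34.4% (28.9% to 40.1%) found with it.

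Of the adhesive glycoproteins, Fn1 was the steadiest gene of the set and Tnc one of the most uneven. Fn1 (ENSMUSG00000026193.15, chromosome 1, 71585520 to 71653200, minus strand) encodes fibronectin, the fibrillar substrate on which many cells spread and migrate. Its level ran from 0 to 5411 CPM with a median of 785 CPM, and its series medians stayed between 538 CPM in series 2 and 1191 CPM in series 5. The SD over cells was 0.936 times the mean, the lowest such ratio of the 10 genes, and the tenth of the cells with most Fn1 held 31.1% of its summed level. Tnc (ENSMUSG00000028364.15, chromosome 4, 63959785 to 64047015, minus strand) encodes tenascin-C, a matricellular protein that can loosen adhesion to fibronectin. Its median was 33.8 CPM and its highest cell, in series 5, had 5170.2 CPM. In series 3 the median of Tnc was 216.2 CPM and 68.4% of cells held it (95% interval 51.3% to 82.5%), whereas in series 4 the median was 0 CPM and 31.6% held it (17.5% to 48.7%). Short exon overlaps with genes on the opposite strand, with Apol7d for Fn1 and with 8030451A03Rik for Tnc, leave the origin of reads there unknown.

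The fasciclin proteins ran in different directions across the series. Postn (ENSMUSG00000027750.16, chromosome 3, 54361109 to 54391037, plus strand), which encodes periostin, had its highest series median in series 1, at 7454 CPM (95% interval 6722 to 8613), and its lowest in series 7, at 1344 CPM (980.1 to 2020). Every cell of series 1 had at least 333.3 CPM of Postn, and the median over the cells of the other series was 2409 CPM (2027 to 2814). Tgfbi (ENSMUSG00000035493.10, chromosome 13, 56609523 to 56639562, plus strand), which encodes the related protein TGFBI, had a median of 0 CPM in series 2 and of 1043 CPM in series 5. In series 2 only 27.1% of cells (15.3% to 41.8%) reached 10 CPM of Tgfbi, against 76.3% to 100% in the other series. Series 5 thus had the most Tgfbi and among the least Postn. Over all cells the Tgfbi median was 327.04 CPM, and it was 495 CPM without series 1 and without series 2.

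Pcolce and Loxl2, which act on collagen, were both found in many cells. Pcolce (ENSMUSG00000029718.14, chromosome 5, 137605103 to 137613784, minus strand) encodes the enhancer that helps BMP1 trim procollagen. Its series medians were 147.8, 84.99, 0, 111.9, 49.3, 0 and 4.803 CPM, and its share of cells was lowest in series 3, at 23.7% (95% interval 11.4% to 40.2%). The share over all cells, 59.5% (53.7% to 65.2%), was 52.1% without series 1, and the median was 47.7 CPM with and 14.9 CPM without it. Loxl2 (ENSMUSG00000034205.16, chromosome 14, 69609068 to 69695834, plus strand) encodes a lysyl oxidase that cross-links collagen and elastin. Its series medians lay between 198.9 CPM in series 2 and 567.3 CPM in series 5, and it was held by 78.9% to 97.1% of the cells of a series. Exons of Pcolce overlap those of Fbxo24 and Gm36266, and exons of Loxl2 those of Gm27177 on the opposite strand and Mir6950.

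Full-length cDNA gives more reads to longer transcripts, so levels were compared between genes only per kilobase of annotated exon. On this scale the mean levels over all cells were 518 CPM per kb for Postn, 180.1 for Tgfbi, 146.6 for Vcan, 103.1 for Loxl2, 89.1 for Fn1, 39.6 for Pcolce, 35.8 for Tnc, 29.9 for Hapln1, 23.4 for Has2 and 13.4 for Cd44. Only some neighbours in this order kept their place across series. Fn1 exceeded Pcolce in 7 of 7 series and Vcan exceeded Loxl2 in 6, while Tgfbi exceeded Vcan, Pcolce exceeded Tnc, and Hapln1 exceeded Has2 in 3 of 7 each, so that these pairs had no settled order. Vcan depends most on the length used: its principal annotated transcript is 2.321 kb against 14.462 kb of exon in all, and per kilobase of principal transcript its mean was 913 CPM per kb, behind Postn at 1413 CPM per kb and ahead of the other 8 genes.

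Levels of the set varied more between name series than those of most genes, with Fn1 at the other end. The measure was the highest series mean over the lowest, with 10 CPM added to both. It was 12.7 for Hapln1 (385 CPM in series 4 against 21.2 CPM in series 2), 12.1 for Tgfbi (1590 CPM in series 5 against 121.7 CPM in series 2) and 8.47 for Vcan (4099.6 CPM in series 6 against 475 CPM in series 2). Series 2 was the lowest for 6 of the 10 genes. Has2 (4.83), Tnc (4.57), Cd44 (4.49) and Postn (4.37) were also at 4 or more, which made 7 of 10 genes, while 27.9% of the 8853 genes reached this fold. The median fold was 4.53 for the 10 genes and 3.003 for all genes. Loxl2 (3.8997) and Pcolce (3.74) were below 4, and Fn1 had a fold of 1.69, with 4.801% of all genes lower. With 100 CPM added in place of 10, the count was 4, made up of Vcan, Hapln1, Postn and Tgfbi, and 1.1% of all genes reached it.

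Covariation was measured as Spearman's rho within every series, on log2(CPM + 1), over 34 to 58 cells that share a series and differ in depth, and is given as the median over the 7 series with the lowest and highest series value. No p is attached, since cells are not replicates. A pair counted as positive at a median of 0.2 or more with rho above 0 in every series, and as negative in the mirrored case. Most relations within the set were weak: of 45 pairs, 33 had a median above 0, the medians ran from -0.19 to 0.32, and their own median was 0.07. Of these, 4 pairs counted as positive and 0 as negative, and they joined the genes in 3 separate groups.

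**Figure D2:**
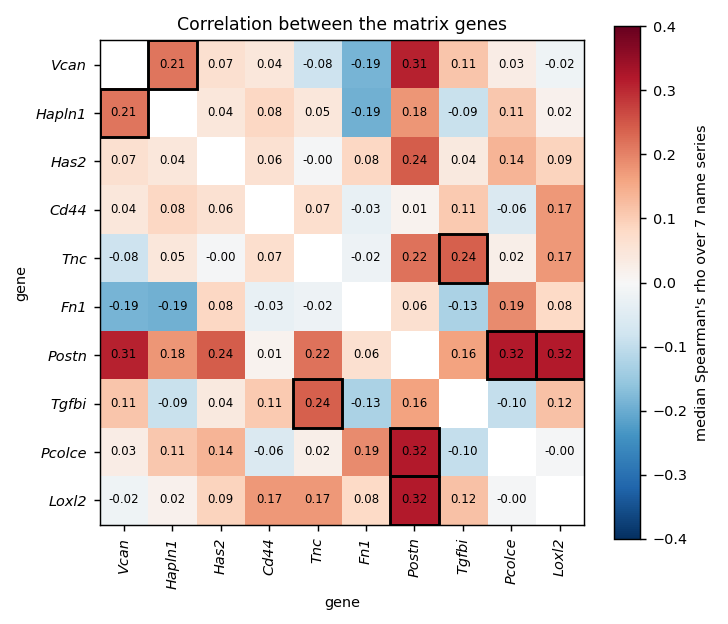
Median over 7 name series of Spearman's rho between each pair of the 10 genes, colour scale from -0.4 to 0.4, with the value printed in each cell; black frames mark the 4 pairs that counted as positive. Frames join Vcan with Hapln1, Tnc with Tgfbi, and Postn with Pcolce and Loxl2, and the lowest values, -0.19, are those of Fn1 with Vcan and with Hapln1.

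The first group is versican and its link protein. Vcan and Hapln1 had a median rho of 0.21, from 0.04 in series 2 to 0.48 in series 3, with 0.39 in series 1 and 0.44 in series 4. In cells with at least 500000 reads the median was 0.15, and by Pearson's r 1 series was below 0 (-0.12), so the pair did not count in either. With all cells pooled its rho was 0.41. Of the other 9 genes, Vcan counted as positive with 1, where 0.328% of all genes did, and negative with 0, where 0.316% did. Hapln1 counted as positive with 1 of 9, against 0.362% of all genes. Has2 and Cd44 each counted as positive with 0 of 9 genes, which is near the share of all genes that did, 0.621% and 0.407%. Has2 had a median of 0.07 with Vcan and 0.04 with Hapln1.

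The second group is Tnc and Tgfbi, with a median rho of 0.24 and values from 0.15 in series 1 to 0.48 in series 5. This was the only positive pair in which no series was below 0.1, but in cells with at least 500000 reads its median was 0.19, short of the threshold. Each counted as positive with 1 of 9 genes, against 0.124% of all genes for Tnc and 0.136% for Tgfbi. Tgfbi and Postn, though of the same protein family, had a median of 0.16 and ran from -0.55 in series 3 to 0.29 in series 5.

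The third group is Postn with Pcolce and with Loxl2, the pairs that chose these genes. Both had a median of 0.32. Postn and Pcolce ran from 0.07 in series 4 to 0.39 in series 7, and Postn and Loxl2 from 0.01 in series 6 to 0.41 in series 3. Postn and Loxl2 no longer counted as positive with depth regressed out (lowest series -0.09), in the authors' depth-corrected table (-0.0026) or in cells with at least 500000 reads (-0.0093), where the median stayed at 0.31 or more. Postn and Pcolce did not count by Pearson's r (lowest series -0.08). Pcolce and Loxl2 had a median of 0.00 with each other (-0.17 to 0.22). Postn counted as positive with 2 of 9 genes, against 0.305% of all genes, and as negative with 0, against 0.124%. Pcolce and Loxl2 each counted as positive with 1 of 9, which was Postn, against 0.237% and 0.282%. Nothing is read from these positive counts, since the pairs chose the genes.

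Postn was also the only gene whose median was above 0 with each of the other 9. Pcolce and Loxl2 are among these 9 and were chosen for their tie to Postn, so nothing is read from this count. The medians of Postn reached 0.2 with 5 of the 9, which besides Pcolce and Loxl2 were Vcan (0.31), Has2 (0.24) and Tnc (0.22). These 3 did not count as positive because single series went the other way. Postn and Vcan stood at 0.26 to 0.47 in series 1 to 5 and at 0.13 in series 7, but at -0.17 in series 6. With all cells pooled, their rho was 0.06. The series with the most Vcan, 5 and 6, were not the series with the most Postn. Postn and Has2 were at -0.31 in series 4 and 5, and Postn and Tnc ran from -0.28 in series 3 to 0.66 in series 7.

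**Figure D3:**
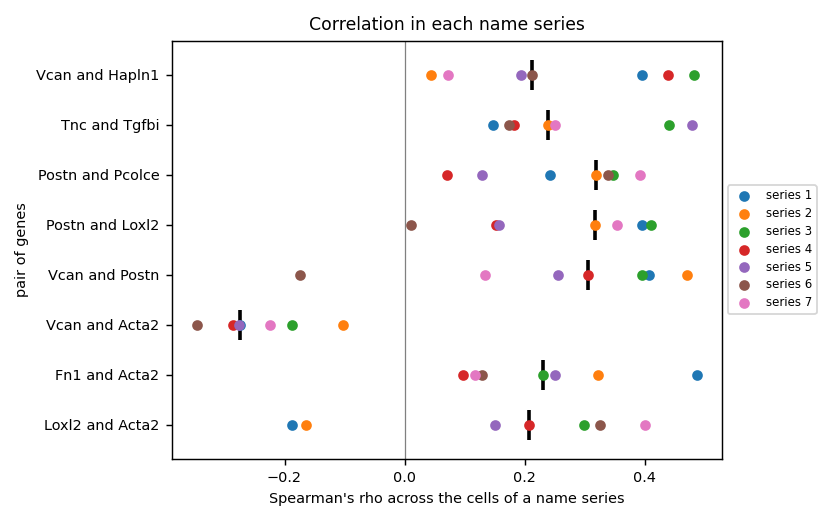
Spearman's rho in each of the 7 name series (coloured points) and its median (black bar) for 8 pairs of genes named on the vertical axis. The 4 positive pairs and Fn1 with Acta2 lie above 0 in all 7 series and Vcan with Acta2 below 0 in all 7, while Vcan with Postn has 1 series below 0 and Loxl2 with Acta2 has series 1 and 2 below 0.

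Fibronectin stood apart from versican and its link protein. Fn1 had a median rho of -0.19 with Vcan, below 0 in 6 of 7 series, and of -0.19 with Hapln1, below 0 in 5 of 7. Series 5 went the other way for Vcan (0.23) and series 6 for Hapln1 (0.19), so neither counted as negative. Fn1 counted as positive with 0 of the other 9 genes, against 0.203% of all genes, and its highest median within the set was 0.19 with Pcolce.

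The relation to Acta2, the smooth muscle actin gene that marks contractile cells, split versican from fibronectin. Acta2 reached 10 CPM in 61.9% of cells, and it varied with its own list: 6 of the 7 other smooth muscle markers counted as positive with it, led by Myl9 (0.62), Cnn1 (0.55) and Tagln (0.54). Vcan was lower where Acta2 was higher, with a median rho of -0.27 and series values from -0.35 in series 6 to -0.10 in series 2. By Pearson's r the median was -0.28, but 1 series was above 0 (0.07), and Vcan did not count as negative. It was 1 of 10 genes of the set that counted as negative with Acta2, and 0.0339% of all genes, 3 in number, did. Fn1 had a median of 0.23, from 0.10 in series 4 to 0.49 in series 1, and was the 1 gene of 10 that counted as positive, where 1.43% of all genes did. The Fn1 median was 0.18 without series 1, without series 2 or without series 5, and 0.19 without series 3, under 0.2 in each case and above 0 in every series that was kept.

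In levels over pooled series, cells with at least 10 CPM of Acta2 had a median of 1082 CPM of Vcan and those below it 2121 CPM. Without series 1, all of whose cells reached 10 CPM of Acta2, the medians were 1294 and 2121 CPM. These pooled medians also hold differences between series: series 2, with the least Vcan, had 66.7% of cells at 10 CPM of Acta2, and series 6 had 26.5%. Within the 6 series that held both kinds of cells, the Vcan median was lower with Acta2 in 4 (in series 5, 2678 against 4489 CPM). It was higher with Acta2 in series 2 (334.03 against 177.9 CPM) and in series 6 (2899.7 against 2799.5 CPM). For Fn1 the pooled medians were 869 and 637 CPM, and 1050.1 and 637 CPM without series 1, and the median was higher with Acta2 in all 6 of these series, from 935.7 against 164.5 CPM in series 2 to 1208 against 1176 CPM in series 5. Nearly all cells of both kinds held Vcan at 10 CPM, 95.1% with Acta2 and 96.4% without, so the pooled difference lay in the amount. Acta2 itself tracked the total count of a cell, at a median rho of 0.36 over series, and with total count and genes detected regressed out Vcan stood at -0.27 and Fn1 at 0.22 with Acta2.

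**Figure D4:**
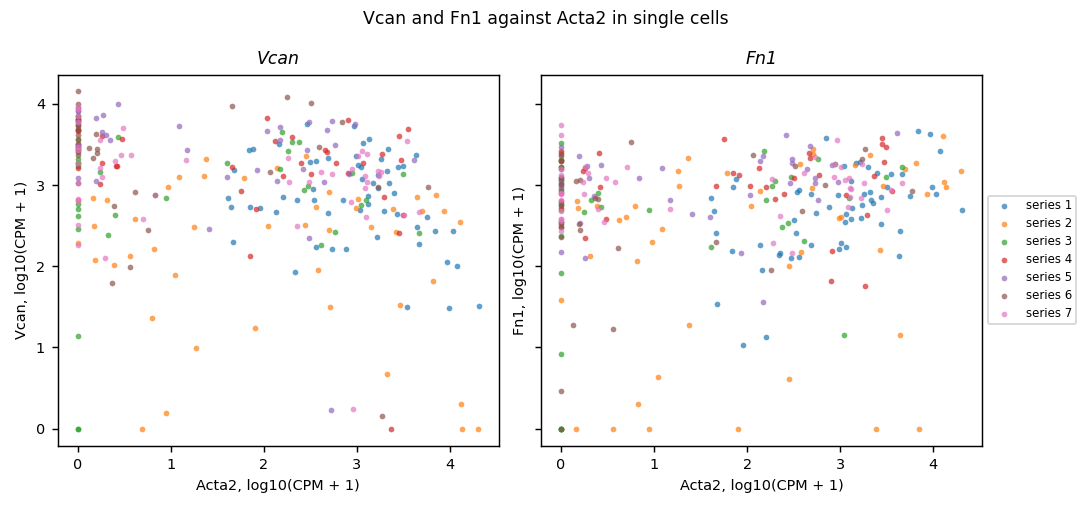
Level of Vcan (left) and Fn1 (right) against Acta2 in each cell, all as log10(CPM + 1), coloured by name series. At high Acta2 the Vcan points spread downward, series 1 and 2 above all, whereas the Fn1 points stay level or rise, and most cells with no Acta2 hold both genes. Series 1 and 2 hold the cells with most Acta2 and have the lowest Vcan medians, so the pooled picture includes differences between series. Within series 2 the rho of Vcan with Acta2 is -0.10, the weakest of the 7 series.

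The other 8 genes had medians between -0.07 (Hapln1) and 0.21 (Loxl2) with Acta2, and each had series on both sides of 0. In 4 of them, picked out after their values were seen, series 1 and 2 stood below most of the rest, while Hapln1 went the other way, with its highest values in series 1 (0.17) and 2 (0.21) and -0.29 to -0.07 in series 3 to 6. Postn stood at -0.28 in series 1 and -0.48 in series 2, and at 0.27, 0.19 and 0.25 in series 3, 4 and 7. Tgfbi stood at -0.35 and -0.31 in series 1 and 2 and at 0.03 to 0.32 in the other 5. Loxl2 stood at -0.19 and -0.16 there and at 0.15 to 0.40 in the other 5, and Tnc at -0.17 and -0.10 and at 0.11 to 0.29. Series 1 and 2 were thus the only series below 0 for Tgfbi, Loxl2 and Tnc, and series 5 (-0.02) joined them for Postn. Whether these series differ was not tested, as a series has no replicate.

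The contrast of Vcan and Fn1 extended over the smooth muscle markers but not over those of mesenchyme. Acta2 is itself on the smooth muscle list, and 6 of the 7 other markers counted as positive with it. The list is therefore no separate support for that contrast. Of all genes, 0.316% counted as negative and 0.328% as positive with Vcan, and 0.203% as positive with Fn1. With Vcan all 8 smooth muscle markers had medians below 0 and 3 counted as negative, Acta2, Tagln (-0.28) and Myl9 (-0.34). Without the 16 cells that carried at least 3 glial markers, 5 did, Cnn1 and Tpm2 being added. All 8 mesenchyme and fibroblast markers had medians above 0 with Vcan, and 3 counted as positive, the growth factor receptor gene Pdgfra (0.25), the collagen gene Col3a1 (0.22) and the proteoglycan gene Lum (0.36). Fn1 had medians above 0 with 4 of these 8 and below 0 with the other 4, and counted with 0. For Vcan, with total count and genes detected regressed out, Dcn alone counted, and in cells with at least 500000 reads Pdgfra alone. Fn1 had medians above 0 with 7 of 8 smooth muscle markers and counted as positive with 4, Acta2, Tagln (0.32), Cnn1 (0.20) and Tpm2 (0.21). Without series 1 this count was 1, Tagln, and in cells with at least 500000 reads it was 0, with 7 medians still above 0.

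**Figure D5:**
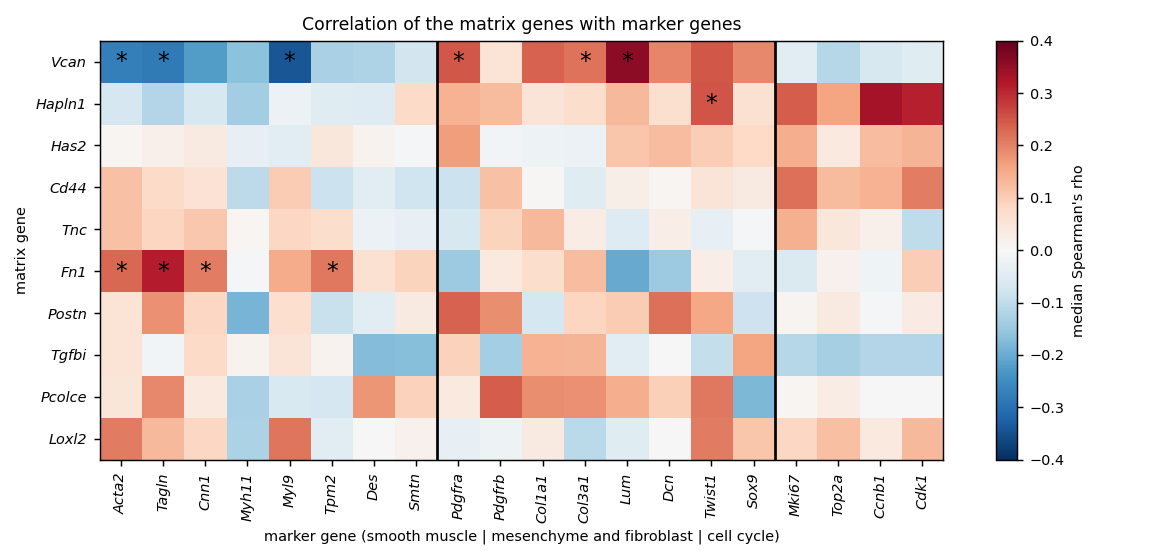
Median over the name series of Spearman's rho between the 10 genes (rows) and 20 marker genes (columns: smooth muscle, mesenchyme and fibroblast, cell cycle), colour scale from -0.4 to 0.4; stars mark cells of the matrix that counted as positive or negative. The Vcan row is blue across smooth muscle and red across mesenchyme, the Fn1 row is red across most of smooth muscle, and the Hapln1 row is red across the cell cycle genes. Has2, Cd44 and Loxl2 also have medians above 0 with each cell cycle gene.

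Hapln1 ran the same way as Vcan over both lists, with medians above 0 for all 8 mesenchyme markers and below 0 for 7 of 8 smooth muscle markers. It counted as positive with 1 mesenchyme marker, the transcription factor gene Twist1 (0.25), where 0.362% of all genes did. It counted with 0 smooth muscle markers in either direction, and the difference from Vcan was not tested. Its medians with the 4 cell cycle genes were 0.33 for Ccnb1, 0.31 for Cdk1, 0.24 for Mki67 and 0.16 for Top2a, though none of them was above 0 in every series. Hapln1 also had a median of 0.19 with the number of genes detected in a cell, whose part in these values was not tested. Has2, Cd44 and Loxl2 also had medians above 0 with all 4 cell cycle genes, and Loxl2 with Mki67 (0.08) was above 0 in every series. Vcan had medians below 0 with all 4 cell cycle genes, between -0.12 and -0.04, and Tgfbi was below 0 with all 4 too.

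For each gene, the 3 genes most like it across the 7 series were listed, among those with one sign in every series that gave a value. Vcan was most like Tbx20, a T-box transcription factor gene of the heart (0.44), Lum (0.36) and the sulfate donor enzyme gene Papss2 (0.32), and most unlike the myosin light chain gene Myl6 (-0.42). Fn1 was most like Tagln (0.32), the actin-binding caldesmon gene Cald1 (0.29) and Xist (0.27, in 6 series), and most unlike 5033428I22Rik (-0.29). Postn was most like Pcolce, Loxl2 and Rasgef1b (0.31), and most unlike the elastic fibre gene Fbln5 (-0.39). With depth regressed out, Tbx20 stood at 0.41 with Vcan, Myl6 at -0.42 with Vcan and Fbln5 at -0.36 with Postn. The lowest series was then below 0 for Tbx20 (-0.02) and Lum (-0.03) with Vcan and for Cald1 (-0.01) with Fn1. It was also below 0 for Loxl2 (-0.09) and Rasgef1b (-0.03) with Postn, so these genes no longer kept one sign.

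The patchier genes had their own neighbours. Has2 was most like Gfpt2, an enzyme gene of the hexosamine pathway (0.36), Mak16 (0.31) and the pentraxin gene Ptx3 (0.27), but Gfpt2 stood at 0.19 and Mak16 at 0.22 with depth regressed out, and Has2 itself had a rho above 0 with genes detected in all 7 series (median 0.24). Cd44 was most like the growth factor gene Hbegf (0.29), the thrombospondin gene Thbs1 (0.29) and Racgap1 (0.27). Tnc was most like the latent TGFB binding protein gene Ltbp2 (0.32, in 5 series), Tgfbi (0.24) and Adpgk (0.23). Tgfbi was most like Abi3bp (0.37, in 4 series), Rcn3 (0.32) and Dlg2 (0.29), and most unlike Spon1 (-0.28). Hapln1 was most like Dcbld2 (0.35), Gnai3 (0.29) and Kars (0.28), Pcolce most like Postn, Bysl (0.28) and Gmppb (0.27), and Loxl2 most like the protease inhibitor gene Timp3 (0.33), Postn and Gosr1 (0.26). Among the remaining genes, the lowest value of Has2 was with Hspb2 (-0.20, in 5 series) and that of Tnc with Rps27a (-0.23). Pcolce was lowest with Btg1 (-0.22) and Loxl2 with Fgl2 (-0.26, in 5 series). Short of the threshold were the lowest values of Hapln1, with Pde1a, and of Cd44, with Rps19-ps3 (both -0.19). With depth regressed out, Rps27a with Tnc was at -0.14, Rps19-ps3 with Cd44 at -0.08, Racgap1 with Cd44 at 0.19 and Gosr1 with Loxl2 at 0.18. One sign in every series was then lost by Ptx3 with Has2, Hbegf and Rps19-ps3 with Cd44, and Adpgk with Tnc. Bysl with Pcolce, and Timp3 and Postn with Loxl2, lost it too.

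Partners of the 10 genes were read from lists chosen by function. Of 9 genes that make, cut or bind hyaluronan, 5 were frequent enough to compare, and 1 counted as positive with Vcan, Ugdh (0.22), whose enzyme makes a building block of hyaluronan and of chondroitin sulfate. Ugdh was also the most widespread of this list, in 75.9% of cells, followed by Tmem2 (46.6%) and Hyal2 (30.3%). Of 8 genes whose products cleave or bind versican, 7 were compared, and Adamts5, a versican-cleaving protease gene, counted as negative with Vcan (-0.26). The fibulin gene Fbln2 of this list was in 97.96% of cells, Fbln1 in 65.3% and Adamts1 in 63.6%, and none of these counted with Vcan. Among the 3 TGFB ligand genes, Tgfb3 counted as positive with Vcan (0.23), while Tgfb2, in 84.01% of cells, did not. No other gene of these 3 lists counted with any of the 10, and the 2 lectican and link protein genes of the table were too rare to compare. Among all genes, 0.328% counted as positive and 0.316% as negative with Vcan.

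In the remaining lists, several genes counted as positive with Acta2, as did 1.43% of all genes. With Postn, 0 of 38 partner genes of all lists counted in either direction, which is near the shares of all genes, 0.305% positive and 0.124% negative. Of the 9 integrin and syndecan receptor genes, Itgb1 (0.27) and Sdc4 (0.22) counted as positive with Acta2. Itgb1 was in 96.6% of cells, Itgav in 61.6% and Itgb5 in 50.0%. Of 8 collagen processing genes compared, Lox (0.36) and Loxl1 (0.32), relatives of Loxl2, counted as positive with Acta2, but their medians with Loxl2 were 0.03 and 0.12. Serpinh1, a collagen chaperone gene, was the most widespread of that list, in 96.3% of cells, followed by Plod2 (71.8%) and Bmp1 (68.4%). Of 6 other matricellular genes, Sparc (0.35) and Ctgf (0.37) counted as positive with Acta2, Sparc also with Fn1 (0.23), and Thbs1 with Cd44 (0.29) and Pcolce (0.26). The shares of all genes that counted as positive were 0.203% with Fn1, 0.407% with Cd44 and 0.237% with Pcolce. Sparc was in 99.7% of cells, Thbs1 in 82.3% and Cyr61 in 70.4%.

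Cells with markers of glia held less Vcan in series 2. At least 3 of 8 glial and Schwann cell markers, a cut set after the data were seen, were at 10 CPM or more in 8 cells of series 1, in 8 cells of series 2 and in 0 cells of series 3 to 7. In series 2 these 8 cells had from 0 to 193.04 CPM of Vcan with a median of 27.1 CPM, and the other 40 cells had a median of 430.4 CPM (95% interval 298.97 to 661.5). In series 1 the medians were 738 and 689 CPM, so the difference was not seen there. Tnc went the other way in series 1, where the 8 cells had at least 158.9 CPM and a median of 246.014 CPM, against 37.6 CPM (12.9 to 116.2) in the other 50 cells. In series 2 the medians of Fn1, Postn and Pcolce were also lower in the cells with glial markers, and those of Cd44, Tnc and Loxl2 higher. In series 1 every gene of the set but Postn had a higher median in such cells. Has2 was found in 0 of 8 such cells in series 2 (up to 36.9% by its interval) and in 5 of 8 in series 1, and Postn was found in all 16. Without these 16 cells, Vcan and Acta2 stood at -0.28 and the same 4 pairs counted as positive.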

How the data were processed

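Both deposited tables cover the same cells. The first holds raw read counts per gene, deposited by the authors as whole numbers. The second holds the authors' depth-corrected score for 14051 genes, whole numbers of nearly equal totals, used only as an alternative and never as counts. The submitters' processing notes name HISAT2 2.1.0, featureCounts, Seurat and mm10, and the annotation and the strand setting are not given in the sources used here. Each cell is its own library, each column was tied to its sample through the title, and 0 pairs of cells had identical counts. Doublets were not called by software, since the protocol in the labels has every capture site photographed. Counts were scaled to CPM, a gene was detected at 10 CPM, and rho was taken on log2(CPM + 1) within each name series for 8853 genes (Python 3.11.15, numpy 2.4.6, pandas 2.3.3, scipy 1.17.1). The rank correlations and intervals were tested on simulated data. Lengths and positions come from GENCODE M21 on GRCm38, and promoter windows from RefSeq on GRCm38.p6. Blood and macrophage markers were not analysed here.

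The 10 genes and the marker and partner lists were chosen with earlier results of these data known. Genes named are the 10, Acta2, the marker genes, per partner list the 3 most widespread and every gene that counted as positive or negative, and per gene of the set the 3 most and 1 least alike genes. Cells are not replicates, so no test was made, and with 1 group no samples were compared. Alternatives were Pearson's r, the depth-corrected score table, depth regressed out, cells with at least 500000 reads, cells as 1 stratum, each name series left out, other thresholds, and thinning to 300000 reads.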

Additional observations from a re-analysis of the deposited data

How the results depend on the processing

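The limits are those of 1 unreplicated group with sparse reads: 59 cells had under 500000 reads, and a rho over 34 to 58 cells is imprecise. Fn1, not Vcan, lost its place with Acta2 when a series was left out. No paired analysis was possible because all cells form 1 group. For the changes listed next, the cause was not tested.

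The 4 positive pairs became 2 with Pearson's r (Tnc with Tgfbi, Postn with Loxl2), 1 in cells with at least 500000 reads (Postn with Pcolce), 2 at a threshold of 0.3 (Postn with Pcolce and with Loxl2) and 7 with all cells pooled. They became 3, without Postn with Loxl2, in the depth-corrected table and with depth regressed out. Hapln1 with Postn was added without series 1, 2, 4 or 5, making 5, and Vcan with Postn and Fn1 with Pcolce without series 6, making 6. Vcan no longer counted as negative with Acta2 by Pearson's r, which gave 0 such genes: its median was -0.28, but 1 series was above 0. The gene positive with Acta2 (Fn1) was lost, leaving 0, in cells with at least 500000 reads and without series 1, 2, 3 or 5. The 7 genes at a fold of 4 became 4 with 100 CPM added. Added after the data were seen, counts over marker lists moved as follows: smooth muscle markers positive with Fn1 from 4 to 1 without series 1 and to 0 in cells with at least 500000 reads, mesenchyme markers positive with Vcan from 3 to 1 both in those cells and with depth regressed out, and smooth muscle markers negative with Vcan from 3 to 5 without the 16 cells with glial markers, an alternative also added afterwards. No value changed sign among those that had counted as positive or negative. Of single correlations, 653 of the values under these alternatives moved by less than their SD over series and 12 by more (4 more with Acta2). The values with 1 series left out all moved by less, and leaving out 1 of 7 can hardly shift a median past that SD. These values therefore say little about stability. Of shares of cells, 98 stayed inside their interval and 32 did not, all but 4 of these at 1 read, 100 CPM or a score of 1. Of medians, 83 stayed and 7 moved, without series 1 or 2. All 20 alternative shares of cells with both a gene and Acta2 moved, 10 at 100 CPM and 10 without series 1. A higher threshold can only lower such a share, and every cell of series 1 held Acta2 at 10 CPM. These moves therefore say little about the relation to Acta2.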
